A study of Mus musculus with 10 samples.

Results

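The genes examined were 7 members of the complement system, picked by name from the 31053 genes of the feature table. C1qa, C1qb and C1qc encode the 3 chains of C1q. C3 encodes the central complement protein. C3ar1, C5ar1 and C5ar2 encode the receptors of the small C3a and C5a fragments. They were measured by scRNA-seq in E0771 mammary tumors, in 5 libraries from WT mice and 5 libraries from mice with an endothelial knockout of Argonaute 1 (EC-AGO1-KO, below KO). The mice were 16-week-old C57BL/6 females, and the tumors were taken on day 21 after E0771 cells, a mouse mammary carcinoma line of the same strain, were placed in the fourth mammary fat pad. KO mice carried Ago1 flox/flox alleles and a VE-Cadherin-Cre (Cdh5-cre) transgene, whose promoter is active in endothelial cells, and the sources used here do not say which of these alleles the WT littermates carried. The 5 WT libraries held 1 tumor each. The 5 KO libraries held 7 tumors, because KO2_plus3 and KO5_plus6 pooled 2 small tumors each. Batch 1 held 1 library per group and batch 2 held 4 per group. The comparison asks whether complement RNA in the tumor differs when AGO1 is lost from the endothelium, and which cells carry the C3 RNA as against the receptors.

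C1q is the recognition unit of the classical complement pathway. Its chains are made mainly by tissue macrophages rather than by the liver, and each C1q molecule holds all 3 of them. C1q starts a cascade that cleaves C3 and then C5. Liver, fibroblasts, some epithelia and activated myeloid cells make C3. The small fragments released, C3a from C3 and C5a from C5, act as anaphylatoxins. C3a binds C3ar1, and C5a binds C5ar1, which signals through G proteins, and C5ar2, which does not. In tumors, C1q is a common marker of resident-type macrophages, and the receptors are found on monocytes, macrophages and neutrophils.

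The libraries held 8323896 to 10591577 unique molecular identifiers (UMIs, 1 per captured RNA molecule), and 65298 barcodes passed as cells, with 968 to 10190 per library. Cells of batch 1 were deeper, with a median of 3862 to 4049 UMIs per cell against 595 to 1142 in batch 2, so the batches were kept apart throughout. A pair of libraries shared at most 28 barcodes. Cells were grouped by marker genes that do not include the 7 genes, and the names end in "-like" because they rest on markers alone. The groups were tumor-like (55673 cells), myeloid-like (2140), T-like (1376), fibroblast-like (590), dendritic-like (539), B-like (408), pericyte-like (260), endothelial-like (182) and epithelial-like cells (94), and 4036 cells stayed unnamed. In batch 1 the 24 fibroblast-like cells carried all 8 fibroblast and all 8 pericyte markers. No cluster there was named pericyte-like, endothelial-like or epithelial-like. A batch 1 cluster of 16 cells raised 8 endothelial markers, but it stayed unnamed because it also raised 6 tumor markers. These 16 cells are not counted as endothelial-like below. All myeloid-like clusters of batch 1 raised 11 or 12 of the 12 myeloid markers, and the 1 of batch 2 raised 9. Ago1 gave 0 UMIs in the 60 WT and 122 KO endothelial-like cells, so the deletion could not be checked there. Over all kept cells Ago1 lay at 4.97 to 7.21 CPM (UMIs of a gene per 1000000 UMIs of the same cells, Actb left out of the total) in WT and 4.97 to 7.96 in KO libraries. The part of the gene that is deleted is not given in the sources used here.

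The genes of C1q lie side by side on chromosome 4 of mm10 (GRCm38), all on the minus strand. C1qb spans 136880129 to 136886187, C1qc spans 136889804 to 136893065 and C1qa spans 136895917 to 136898803. The gap from C1qb to C1qc is 3616 bases and that from C1qc to C1qa is 2851 bases. C5ar2 (16234585 to 16244154) and C5ar1 (16246743 to 16259540) are likewise neighbours on the minus strand of chromosome 7, with a gap of 2588 bases. C3ar1 is on chromosome 6 (122847138 to 122856161) and C3 on chromosome 17 (57203970 to 57228136), both on the minus strand. The 250 bases before the RefSeq start are shown for C1qb and C1qc, since these chains were high in the same cells, and for C3, which was highest in other cells. Capitals mark the motifs described next.

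C1qb, minus strand of chr4:136886201-136886450 (GRCm38.p6): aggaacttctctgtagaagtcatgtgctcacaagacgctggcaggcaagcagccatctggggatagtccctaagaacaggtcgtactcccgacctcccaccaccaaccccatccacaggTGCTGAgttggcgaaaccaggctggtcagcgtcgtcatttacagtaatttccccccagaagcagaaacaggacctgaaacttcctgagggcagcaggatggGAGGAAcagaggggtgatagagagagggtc

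C1qc, minus strand of chr4:136892915-136893164 (GRCm38.p6): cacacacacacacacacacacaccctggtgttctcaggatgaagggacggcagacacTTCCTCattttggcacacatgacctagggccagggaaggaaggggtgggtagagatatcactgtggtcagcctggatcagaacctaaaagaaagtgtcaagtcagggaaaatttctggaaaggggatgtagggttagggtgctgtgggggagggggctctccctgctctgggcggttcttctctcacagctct

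C3, minus strand of chr17:57228137-57228386 (GRCm38.p6): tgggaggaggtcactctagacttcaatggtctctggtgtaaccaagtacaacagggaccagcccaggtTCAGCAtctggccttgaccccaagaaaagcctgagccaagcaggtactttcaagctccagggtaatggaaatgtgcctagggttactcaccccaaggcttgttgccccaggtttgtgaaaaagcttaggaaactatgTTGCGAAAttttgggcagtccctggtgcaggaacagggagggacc

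Each window was searched on both strands for the PU.1 core GAGGAA, the MAF recognition core TGCTGA, the C/EBP site TTGCNNAA and the NF-kB site GGGANNTCC. PU.1 and MAF factors are transcription factors of macrophages, and C/EBP and NF-kB factors drive acute phase genes. The C1qb window held the PU.1 core 30 bases upstream of the start and the MAF core 131 bases upstream. The C1qc window held the PU.1 core on the opposite strand, 193 bases upstream of the RefSeq start. That start lies inside the C1qc span given above, which follows another annotation, so the window overlaps that span. The C3 window held the C/EBP site as TTGCGAAA, 45 bases upstream, and the MAF core on the opposite strand, 182 bases upstream. These letters are common. Of 32851 mouse promoter windows of the same length, 23.3% held the PU.1 core, 16.1% the MAF core, 9.56% the C/EBP site and 3.59% the NF-kB site, so a match is a description of the sequence only.

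C1q RNA lay in the myeloid-like cells. In batch 1, these cells were 32.0% of all kept cells and held 97.9% of the C1qa UMIs, 98.3% of the C1qb UMIs and 97.8% of the C1qc UMIs. Pooled over both libraries of batch 1, myeloid-like cells stood at 2204 CPM for C1qa, 3096 for C1qb and 2206 for C1qc. In tumor-like cells of the same libraries the 3 chains stood at 6.41, 6.86 and 7.03 CPM. Barcodes with at most 50 UMIs, which hold free RNA rather than a cell, carried 112 CPM of C1qa, 182 of C1qb and 100.6 of C1qc. All other classes were near or below these free-RNA levels. Among the 66 B-like cells of batch 1, at 175 CPM of C1qb, the 7 C1qa, 11 C1qb, 6 C1qc and 12 C5ar1 UMIs each came from 1 cell. Likewise 1 of the 111 T-like cells held all 10 C1qb UMIs.

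In batch 2 the C1q level of myeloid-like cells was far lower, and it was still above free RNA. The pooled values were 219.9 CPM for C1qa (95% exact Poisson interval 179 to 267), 219.9 for C1qb (179 to 267) and 248 for C1qc (205 to 298), against 29.2, 28.8 and 26.9 in free RNA. These intervals cover counting error only. Myeloid-like cells were 2.30% of the cells of batch 2 and held 43.0% of its C1qa UMIs, 48.8% of its C1qb UMIs and 48.7% of its C1qc UMIs. Tumor-like cells, 86.3% of the cells, held 27.7%, 21.3% and 23.5% at a level of 1.03 to 1.52 CPM. A pair of unnamed clusters of batch 2 carried 5 myeloid markers each. The 1396 cells with both tumor and myeloid markers stood at 15.3 CPM of C1qb, and the 1255 cells with low myeloid markers at 34.5 CPM. The first were 1.61 to 3.57% of cells in WT and 1.68 to 2.84% in KO libraries of batch 2, and the second 1.03 to 2.79% in WT and 1.66 to 1.81% in KO.

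**Figure D1:**
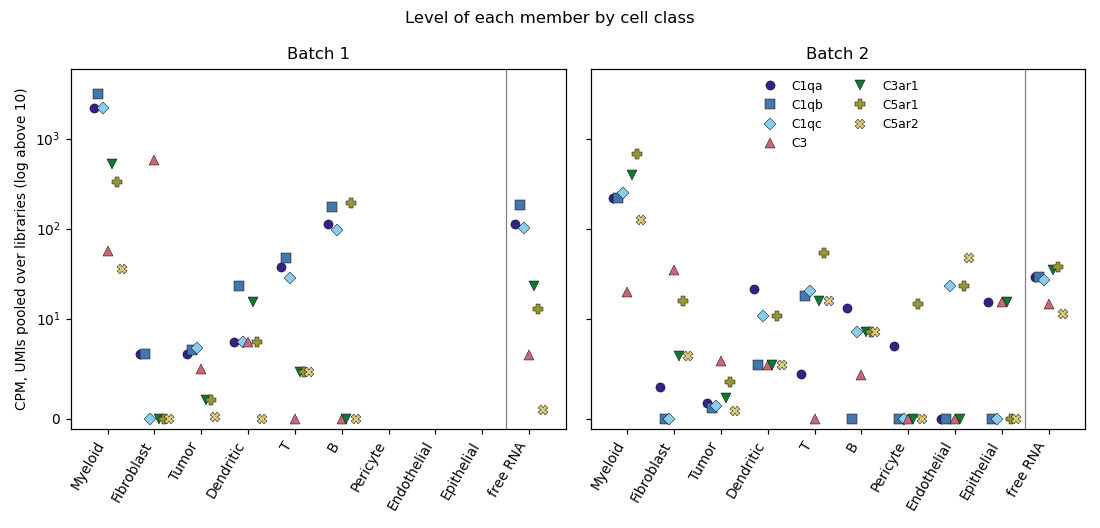
Level of the 7 genes in each cell class, as CPM of UMIs pooled over the libraries of batch 1 (left) and batch 2 (right), on an axis that is linear up to 10 and logarithmic above; each marker is a gene and free RNA stands at the right of each panel. C1q genes and receptors are highest in myeloid-like cells in both batches. C3 is highest in fibroblast-like cells, at 571 CPM in batch 1 and 34.5 in batch 2, the latter from 11 UMIs.

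The batches also differed in how often the chains were found together. In batch 1, 431 of 691 myeloid-like cells (62.4%) held UMIs of all 3 chains and 189 held none. In batch 2, 4 of 1449 cells (0.276%) held all 3 and 1197 held none. Depth per cell enters such shares, so each cell was thinned to 500 UMIs, which left out 14 cells of batch 1 and 1234 of batch 2. Before thinning, 70.8% of batch 1 and 6.63% of batch 2 myeloid-like cells had a C1qb UMI, at median depths of 2555 and 348 UMIs. After thinning, 55.8% of 677 cells in batch 1 (exact 95% interval 52.0 to 59.6) and 9.30% of 215 cells in batch 2 (5.78 to 14.0) had one. In tumor-like cells, which should lack C1q, the thinned share was 0.920% in batch 1 and 0.0370% in batch 2. The C1q step thus remained at equal depth. The RNA content of myeloid-like cells moved with it. Ribosomal protein genes took 14.8 to 16.7% of their UMIs in batch 1 and 1.34 to 2.70% in batch 2, mitochondrial genes 3.30 to 3.50% against 0.648 to 1.09%, and Malat1, a nuclear RNA, 1.04 to 1.41% against 0.319 to 0.445%. Neat1, another nuclear RNA, went the other way, with 0.0522 to 0.0596% in batch 1 and 0.196 to 0.290% in batch 2. The part of these shifts in the C1q level was not tested.

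Between WT and KO, the C1q level of myeloid-like cells did not differ past the test. C1qa stood at 2165 CPM in the batch 1 WT library and at 74.7, 202, 474 and 208 in WT1, WT3, WT4 and WT5 of batch 2. In KO it stood at 2239 in batch 1 and at 239, 218, 288 and 237 in KO1, KO2_plus3, KO4 and KO5_plus6. The groups overlapped in batch 2, and the batch 1 library was the highest of each group.

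C1qb, in the same order of libraries, stood at 3040 CPM in batch 1 and 149, 135, 118 and 159 in batch 2 for WT. For KO it stood at 3145 in batch 1 and 292, 271, 254 and 237 in batch 2. Every KO library lay above every WT library of its batch, and no other of the 5 tested genes separated in this way. Among all 1257 genes tested in myeloid-like cells, KO lay above WT in both batches without overlap for 14 (1.11%) and below for 7 (0.557%). The WT values of batch 2 rest on 1 to 13 C1qb UMIs per library and the KO values on 11 to 36. The mean over batch 2 was 140.4 ± 17.7 CPM in WT and 264 ± 23.5 in KO (SD, n = 4).

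C1qc stood at 2151 CPM in batch 1 and 74.7, 225, 1065 and 159 in batch 2 for WT, and at 2254 in batch 1 and 504, 256, 237 and 219 in batch 2 for KO. The WT values spanned the KO values. The highest, WT4, came from 9 UMIs in a library with 29 myeloid-like cells. Summed over its chains, C1q rested on 12 to 43 UMIs in the WT libraries of batch 2 and 38 to 99 in the KO libraries. Free RNA was estimated at 35.1, 32.3, 62.1 and 10.5% of the myeloid-like UMIs of WT1, WT3, WT4 and WT5. In KO1, KO2_plus3, KO4 and KO5_plus6 the estimate was 79.0, 8.04, 2.94 and 5.56%. It came from only 1 or 2 marker lists in these WT libraries and in KO1.

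The library-level test (edgeR quasi-likelihood on summed UMIs, batch as a covariate, Benjamini-Hochberg adjustment over all genes) gave a log2 fold change of KO over WT of 0.29 ± 0.23 (SE) for C1qb, 0.15 ± 0.27 for C1qc and 0.09 ± 0.23 for C1qa, each with an adjusted p of 0.999. None of the 5 tested members was called, where 1 of 1257 genes (0.0796%) was, a gene lower in KO. DESeq2 called none of the 5 either. Within batch 2 alone the C1qb value was 0.83, with an unadjusted p of 0.0186 and an adjusted p of 0.639. Without a batch term, it was -0.02.

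**Figure D2:**
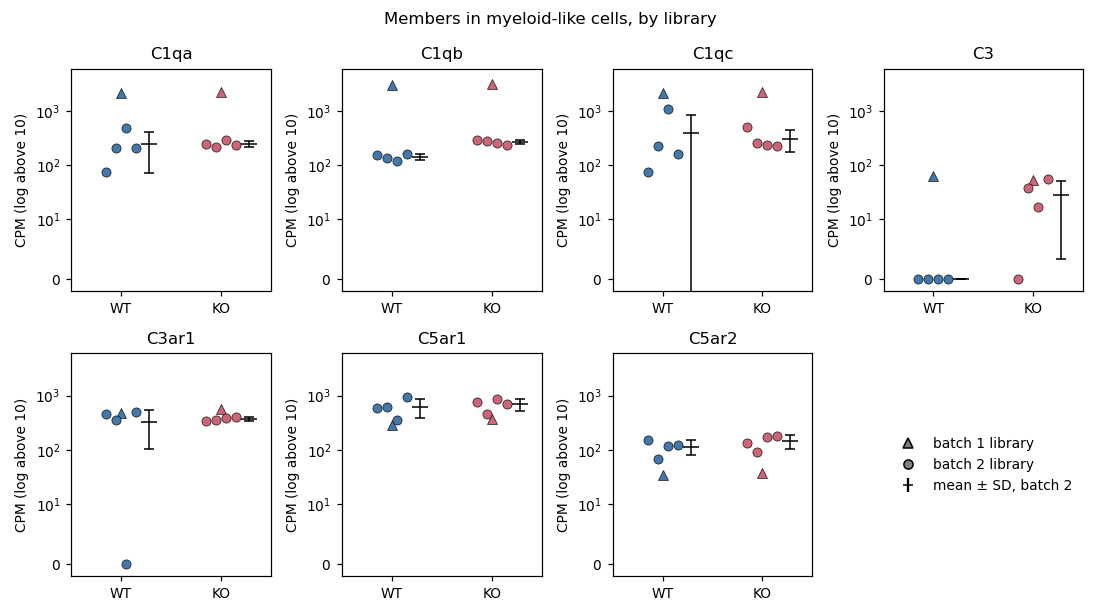
CPM of each gene in the myeloid-like cells of each library, WT in blue and KO in red, with batch 1 as triangles, batch 2 as circles and the mean ± SD of the 4 libraries of batch 2 beside them, on an axis linear up to 10 and logarithmic above. C1qb is the gene whose batch 2 circles do not overlap, from 118 to 159 in WT and from 237 to 292 in KO, the C1q triangles lie above all circles, and the SD bar of C1qc in WT runs below 0.

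The chains kept a fixed ratio in batch 1. Of the C1q UMIs of myeloid-like cells there, C1qa took 29.4% in WT and 29.3% in KO, C1qb 41.3% and 41.2%, and C1qc 29.2% and 29.5%. In batch 2 the share of C1qb ranged from 7.14% to 50%, from as few as 12 C1q UMIs in a library, which is too few to give a ratio. These are shares of molecules counted at the 3' end, so transcript length does not enter them, but capture of each chain may differ.

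The myeloid-like cells were not uniform. Sub-clusters were made without the 7 genes among the clustering genes and named from markers alone, and their levels are given as a description with no test. In batch 1 the 259 cells of the Mrc1 Stab1 macrophage sub-cluster, which carried all 8 of its markers, had the highest C1q level, at 2934 CPM of C1qa, 4103 of C1qb and 3031 of C1qc, and 96.5% of them held a C1qb UMI. The 284 cells of the monocyte sub-cluster, marked by Ly6c2, Ccr2 and Plac8, stood at 1150, 1810 and 1052 CPM, and 45.8% held a C1qb UMI. The 91 interferon-response cells, with raised Ifit1 and Rsad2, stood at 2644 CPM of C1qb and the 29 cycling cells at 2987. A further 28 cells with Lpl, Pdpn and Mmp12, macrophage genes of lipid handling and matrix breakdown, stood at 1888, and hemoglobin genes led that sub-cluster.

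The clusters of the first round split the monocytes further. A cluster of 130 cells led by Ly6c2 and Chil3 had 341 CPM of C1qb, against 4135 CPM in the highest myeloid-like cluster, which was led by the C1q genes, Pf4 and Apoe. A cluster of 39 cells led by Ly6i, Adgre4 and Ace had 1 C1qb UMI and 0 C1qa and C1qc UMIs in 65723 UMIs, a level under that of free RNA. The clusters of 130 and 39 cells held 80 and 1 C1qb UMIs, against 941 in the monocyte sub-cluster. Most C1qb UMIs of that sub-cluster thus came from cells of other first-round clusters. Another cluster, of 141 cells, was led by C1qb, C1qc and C1qa, with Ly6c2 also among its leading genes. It stood at 3015 CPM of C1qb. In batch 2, the 1082 cells of the Lpl Pdpn Mmp12 macrophage sub-cluster stood at 286, 277 and 295 CPM of C1qa, C1qb and C1qc. The 321 monocytes stood at 50.9, 71.3 and 102. That sub-cluster was named from Lpl, Mmp12 and Fabp5, and Pdpn was not among its raised markers. In both batches the monocytes thus stood below the largest macrophage sub-cluster, which was Mrc1 Stab1 in batch 1 and Lpl Pdpn Mmp12 in batch 2. The 28 Lpl Pdpn Mmp12 cells of batch 1 were close to the monocytes there, at 1888 against 1810 CPM of C1qb. The remaining 46 cells carried 6 tumor markers and stayed unnamed. An Lpl Pdpn Mmp12 macrophage sub-cluster was named in both batches, and a Mrc1 Stab1 macrophage sub-cluster in batch 1 alone. With finer clustering (resolution 2), a myeloid-like cluster of 413 cells of batch 2 had Mmp12, Mrc1, F13a1 and Lpl among its leading genes. The missing name in batch 2 thus does not show that such macrophages were absent there.

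**Figure D3:**
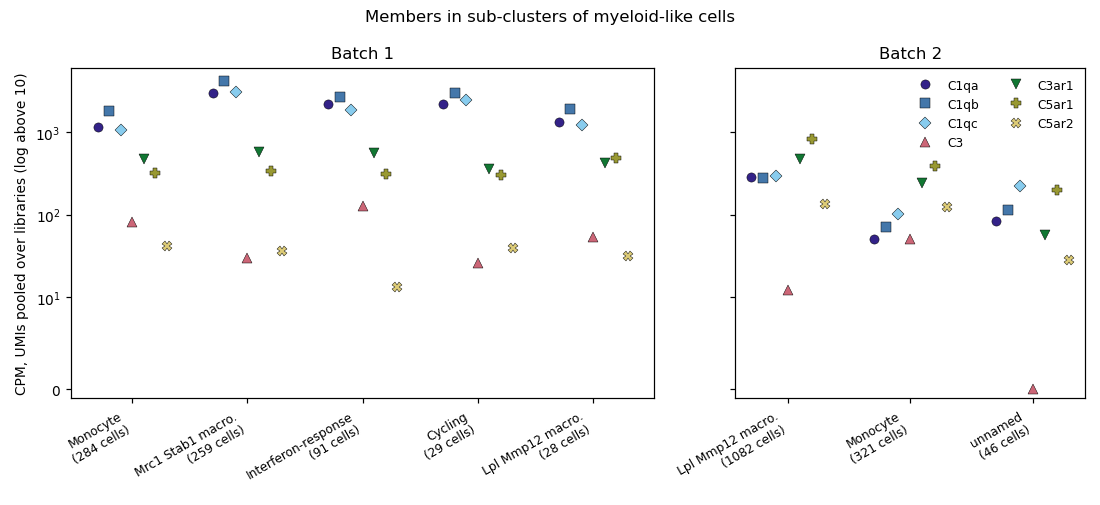
CPM of each gene in sub-clusters of myeloid-like cells, UMIs pooled over libraries, batch 1 on the left and batch 2 on the right, with the number of cells under each name, on an axis linear up to 10 and logarithmic above. The largest macrophage sub-cluster is Mrc1 Stab1 in batch 1 and Lpl Pdpn Mmp12 in batch 2. C1qb is lower in monocytes than in it, at 1810 against 4103 CPM in batch 1 and 71.3 against 277 in batch 2. C3 is higher in monocytes, at 80.8 against 30.2 and 50.9 against 12.3.

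The receptors followed the same cells with another pattern between batches. C3ar1, the receptor of C3a, had 97.6% of its UMIs in myeloid-like cells in batch 1 and 51.0% in batch 2. Its level there was 517 CPM (485 to 551) and 389.8 CPM (335 to 451), against 23.0 and 34.9 in free RNA. C5ar1, the signalling receptor of C5a, was higher in batch 2, at 675 CPM (602 to 755) against 331 (306 to 358). C5ar2, its non-signalling partner, was also higher in batch 2, at 124 CPM (94.0 to 161) against 35.5 (27.5 to 45.1). C1q thus stood higher in batch 1 while both C5a receptors stood higher in batch 2. Thinned to 500 UMIs, 14.5% of myeloid-like cells in batch 1 (11.9 to 17.4) and 20.9% in batch 2 (15.7 to 27.0) held a C5ar1 UMI, and 19.2% (16.3 to 22.4) and 14.9% (10.4 to 20.4) a C3ar1 UMI, and these intervals overlapped. Thinned to 250 UMIs, which kept 690 and 1411 cells, the C5ar1 share was 7.101% in batch 1 (5.30 to 9.28) and 11.7% in batch 2 (10.1 to 13.5), without overlap, and the C3ar1 share was 10.1% (7.99 to 12.6) and 7.30% (5.997 to 8.783).

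C3ar1 in myeloid-like cells stood at 473 CPM in batch 1 and 448, 359.6, 0 and 489 in batch 2 for WT, and at 555 in batch 1 and 345, 354, 389.6 and 401 in batch 2 for KO. The groups overlapped, and the 0 of WT4 lies in a library of 8447 myeloid-like UMIs, in which 3 UMIs would already be 355 CPM. C5ar1 stood at 284 in batch 1 and 598, 629, 355 and 929.5 in batch 2 for WT, and at 372 in batch 1 and 769.9, 452, 864 and 711 in batch 2 for KO. Here the WT range of batch 2 enclosed the KO range. C5ar2 stood at 34.1 in batch 1 and 149, 67.4, 118 and 122 in batch 2 for WT, and at 36.7 in batch 1 and 133, 90.3, 169 and 182 in batch 2 for KO, from 1 to 12 UMIs per library of batch 2. The edgeR log2 fold change was -0.03 ± 0.19 (SE) for C3ar1 and 0.03 ± 0.19 for C5ar1, each with an adjusted p of 0.999. C5ar2 fell below the filter on low counts, and without it the value was 0.24 ± 0.35 (adjusted p = 0.889).

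Both cell states of batch 2 carried the receptors. C5ar1 stood at 814 CPM in the Lpl Pdpn Mmp12 macrophages and 387 in the monocytes, C3ar1 at 470.1 and 245, and C5ar2 at 135 and 122. In batch 1, C3ar1 stood between 359.5 and 567 CPM and C5ar1 between 301 and 488 over the 5 sub-clusters, a narrower spread than that of C1q. All 3 receptors were seen in 5.21% of the myeloid-like cells of batch 1 and 0.207% of those of batch 2, and at least 1 of them in 71.9% and 27.1%. Outside myeloid-like cells the receptors were mostly near or below free RNA. In tumor-like cells they were well below it, with C3ar1 at 1.87 CPM in batch 1 and 2.08 in batch 2, against 23.0 and 34.9. C5ar1 stood at 53.3 CPM in T-like cells of batch 2 (34.1 to 79.3, 24 UMIs) against 37.8 in free RNA, and C3ar1 at 15.5 against 34.9. The free-RNA level of C5ar1 in batch 2 was 30.9 CPM with a limit of 20 UMIs per barcode and 60.4 with 100. C5ar2 stood at 46.5 CPM in endothelial-like cells, from 4 UMIs in 2 of 182 cells, 3 of them in 1 cell of KO4, which is too few to set the class apart from the 11.2 CPM of free RNA. In fibroblast-like cells of batch 1 all 3 receptors were at 0 UMIs, where 3 UMIs would be 19.5 CPM.

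C3 differed from C1q in its cells of highest level. Fibroblast-like cells held the highest C3 level, at 571 CPM in batch 1 (458 to 704) and 34.5 CPM in batch 2 (17.2 to 61.7), against 6.39 and 14.3 in free RNA. In batch 1 this was 88 UMIs in 12 of 24 cells, of which 1 cell held 41 (46.6%). In batch 2 it was 11 UMIs in 11 of 566 cells. The batch 2 interval overlapped that of myeloid-like cells (8.96 to 37.2). Thinned to 500 UMIs, 29.2% of the batch 1 cells (12.6 to 51.1) and 0.408% of the batch 2 cells (0.0103 to 2.25) held a C3 UMI. At that depth 0.465% of the myeloid-like cells of batch 2 held one. Thinned to 250 UMIs, the batch 2 shares were 1.29% in fibroblast-like and 0.496% in myeloid-like cells. The 260 pericyte-like cells of batch 2 held 0 C3 UMIs, where 3 UMIs would be 21.9 CPM. Fibroblast-like cells held 1 C1qa UMI in each batch, 1 C1qb UMI in batch 1 and 0 in batch 2, and 0 C1qc UMIs.

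Myeloid-like cells carried C3 as well. They held 107 of the 252 C3 UMIs of batch 1, more than the 88 of the fewer fibroblast-like cells. Their level was 56.7 CPM in batch 1 (46.5 to 68.5), in 85 of 691 cells, and at 19.6 CPM in batch 2 (8.96 to 37.2), an interval that holds the free-RNA level of 14.3. Within them C3 ran the other way to C1q for the monocytes and the Mrc1 Stab1 macrophages, though not for the interferon-response cells. The 130 cells led by Ly6c2 and Chil3 had 141 CPM of C3 (96.9 to 198), the interferon-response sub-cluster 129, the monocytes 80.8 and the Mrc1 Stab1 macrophages 30.2. In batch 2 the monocytes had 50.9 CPM, from 5 UMIs, and the Lpl Pdpn Mmp12 macrophages 12.3, from 4 UMIs.

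Tumor-like cells carried C3 at 4.99 CPM in batch 1 (3.77 to 6.47) and 5.80 in batch 2 (5.10 to 6.56), under the free-RNA level in both batches, which the interval of batch 1 holds. The 248 UMIs of batch 2 lay in 248 different cells of 54480. Over the 8 tumor-like clusters of batch 2 the level ran from 4.55 to 8.18 CPM, with intervals that overlap. Because tumor-like cells were so many, they nevertheless held 81.0% of the C3 UMIs of batch 2 and 22.2% of those of batch 1. The free-RNA level is that of barcodes with at most 50 UMIs, not the amount of free RNA in a cell. Free RNA was estimated to make up only 3.18 to 5.47% of the UMIs of tumor-like cells, and its part in their C3 level was not tested.

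Between groups, C3 in fibroblast-like cells could not be compared well. It stood at 388 CPM (33 UMIs) in the batch 1 WT library and 796 CPM (55 UMIs) in the batch 1 KO library, from 15 and 9 cells. The cell with the most C3 UMIs held 15 in WT and 41 in KO, and without it the levels were 229 CPM in WT and 226 in KO, a comparison added after the data were seen. The higher KO value of batch 1 thus rested on 1 cell. In batch 2 it stood at 51.2, 35.1, 0 and 47.5 CPM in WT1, WT3, WT4 and WT5 and at 0, 32.2, 0 and 76.7 in KO1, KO2_plus3, KO4 and KO5_plus6, from 0 to 3 UMIs per library. The groups overlapped in batch 2. The KO library of batch 1 had under 10 fibroblast-like cells and was left out of the fit, and C3 then fell below the filter on low counts. In that fit no gene was called by edgeR or by DESeq2 (0 of 891, 0%, with 40 at an unadjusted p under 0.05). Without the filter the log2 fold change of C3 was -0.39 ± 0.89 (SE, adjusted p = 0.993), and with libraries of at least 5 cells, an alternative added after the data were seen, it was 0.53 ± 0.49 (adjusted p = 0.702). The sign thus turned with 1 library.

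C3 in tumor-like cells stood at 5.29 CPM in the WT library of batch 1 and 2.21, 3.26, 12.1 and 6.46 in those of batch 2. In KO it stood at 4.63 in batch 1 and 5.89, 5.12, 6.43 and 5.25 in batch 2. The WT values spread around the KO values, with WT4 highest, from 63 of its 69 C3 UMIs. Those 63 lay in all 8 tumor-like clusters, at 8.99 to 17.0 CPM. The log2 fold change was -0.15 ± 0.36 (SE, edgeR, adjusted p = 0.970), and 0.30 without WT4 (adjusted p = 0.802). No gene was called in tumor-like cells by edgeR or by DESeq2 (0 of 11495, 0%, with 624 at an unadjusted p under 0.05). C3 in myeloid-like cells stood at 61.3 and 52.6 CPM in the WT and KO libraries of batch 1. In batch 2 it was at 0 in all 4 WT libraries and at 0, 37.6, 16.9 and 54.7 in the KO libraries, from 0, 5, 1 and 3 UMIs. The WT libraries of batch 2 held 174843 myeloid-like UMIs together, in which 3 UMIs would be 17.2 CPM, and the KO libraries had 9 UMIs, or 31.6 CPM pooled. C3 was below the filter in myeloid-like cells, and without it the value was 0.18 ± 0.43 (SE, adjusted p = 0.973).

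The source of C3 against the receptor cells was compared within each library as the log2 ratio of the C3 level in fibroblast-like over myeloid-like cells, with 10 CPM added to each. It was 2.48 in the WT library of batch 1, from 33 and 54 UMIs. In batch 2 it was 2.61, 2.17, 0 and 2.52 in WT and 0, -0.18, -1.43 and 0.42 in KO. WT values lay above KO values except for WT4. WT4 and KO1 had 0 C3 UMIs in both cell types, so that their ratio of 0 comes from the added 10 CPM alone. The difference of KO and WT means was -2.12, with p = 0.0857 by exact permutation of the 8 libraries of batch 2 (two-sided), where the smallest p that 70 arrangements allow is 0.0286. Without WT4 it was -2.73 (exact permutation p = 0.0286, the smallest that 7 libraries allow), and without both WT4 and KO1, an alternative added after the data were seen, it was -2.83 (exact permutation p = 0.1, the smallest that 6 libraries allow). It rests on 0 to 5 C3 UMIs per cell type and library, and with 1 or 50 CPM added it was -5.10 or -0.75.

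The share of each library's C3 UMIs by cell class showed the batch step again. In batch 1, fibroblast-like cells held 27.5% of the WT and 41.7% of the KO library, or 17.1% and 15.4% without the cell with the most C3 UMIs in each. In batch 2 they held 0 to 11.8%. Myeloid-like cells held 45.0% and 40.2% in batch 1, 0% in all 4 WT libraries of batch 2 and 0 to 14.7% in the KO libraries. Tumor-like cells held 66.7 to 91.3% in batch 2. KO minus WT was -0.43 percentage points for fibroblast-like, -6.38 for tumor-like, 4.10 for myeloid-like and 2.72 for other cells. Exact permutation of the libraries inside each batch (two-sided) was used, and adjusted over the 4 shares, p was 0.943, 0.419, 0.419 and 0.419, and the smallest unadjusted p that 140 arrangements allow is 0.0143, or 0.0714 for the myeloid-like share with its ties at 0.

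**Figure D4:**
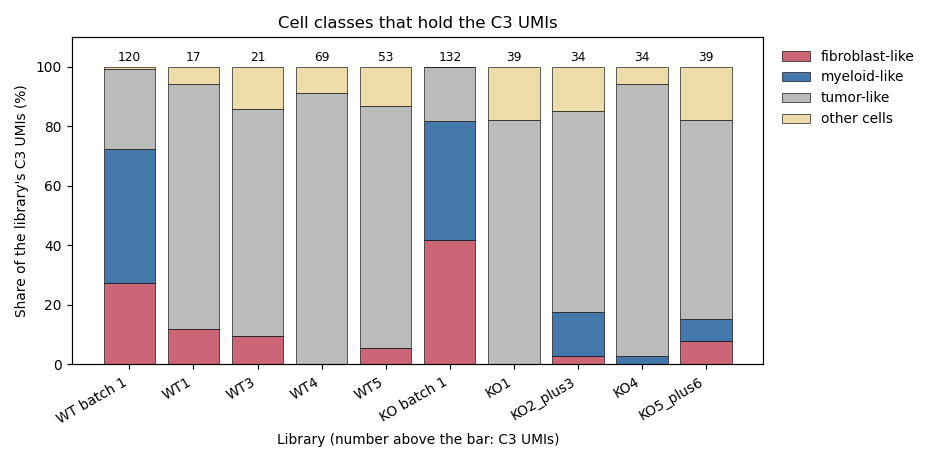
Share of the C3 UMIs of each library, in percent, that lies in fibroblast-like, myeloid-like, tumor-like and other cells, 1 bar per library with its number of C3 UMIs above. Fibroblast-like and myeloid-like cells hold most of the 120 and 132 UMIs of the batch 1 libraries, and tumor-like cells hold 66.7 to 91.3% in batch 2.

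Over all kept cells of a library, where fewer myeloid cells and less RNA per cell cannot be told apart, the 7 log2 fold changes of KO over WT were positive, except that C3, at 0.03, was negative under 10 of 23 alternatives, -0.00471 with DESeq2 among them, and none passed the test. C1qb stood at 381 CPM in the WT library of batch 1 and 2.01, 3.31, 2.67 and 3.37 in those of batch 2. In KO it stood at 490.4 in batch 1 and 4.15, 9.82, 4.97 and 5.39 in batch 2. C1qa stood at 272 in batch 1 and 2.72, 4.79, 2.85 and 4.45 in batch 2 for WT, and at 351 in batch 1 and 5.32, 9.07, 5.89 and 5.03 in batch 2 for KO. Both genes were higher in every KO library than in every WT library of the same batch.

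C5ar2 stood at 4.16 CPM in batch 1 and 1.86, 1.47, 2.14 and 2.29 in batch 2 for WT, and at 6.14 in batch 1 and 3.49, 4.07, 5.16 and 3.23 in batch 2 for KO, from 8 to 28 UMIs per library of batch 2. These values did not overlap either. Of the 139 C5ar2 UMIs of batch 2, 57 lay in myeloid-like, 33 in tumor-like and 33 in unnamed cells. In tumor-like cells of batch 2, C5ar2 averaged 0.565 ± 0.167 CPM in WT and 0.997 ± 0.387 in KO (SD, n = 4), under its free-RNA level of 11.2.

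The edgeR log2 fold change over all kept cells was 0.73 ± 0.23 (SE) for C1qb, 0.56 ± 0.19 for C1qa and 0.84 ± 0.23 for C5ar2, with unadjusted p of 0.00541, 0.0108 and 0.00253 and adjusted p of 0.462, 0.462 and 0.459. C1qc had 0.42, C3ar1 0.34, C5ar1 0.33 and C3 0.03, with adjusted p from 0.584 to 0.990. No gene of 12450 was called (0%), with 1102 at an unadjusted p under 0.05, and DESeq2 called 2, neither of them one of the 7. KO lay above WT in both batches without overlap for 292 of the 12450 genes (2.35%) and below for 40 (0.321%), and for 3 and 0 of the 7. C1qb was called only without the filter on low counts (adjusted p = 0.0210). In that setting 242 of 27390 genes were called (0.884%), 207 of them higher in KO. Without the pooled KO libraries C1qb was 0.46 and C5ar2 was 0.88.

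The share of myeloid-like cells moved with the whole-library C1q levels in some libraries and not in others. The WT library of batch 1 had 28.5% and the KO library 36.3%. In batch 2 the WT libraries had 1.30, 1.72, 0.309 and 3.90%, and the KO libraries 1.49, 6.34, 2.64 and 2.44%. The highest C1qb level of batch 2 and the highest share were both in KO2_plus3. WT5, however, had the second highest share and a C1qb level below every KO library. The part of cell shares in the whole-library values was not tested.

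**Figure D5:**
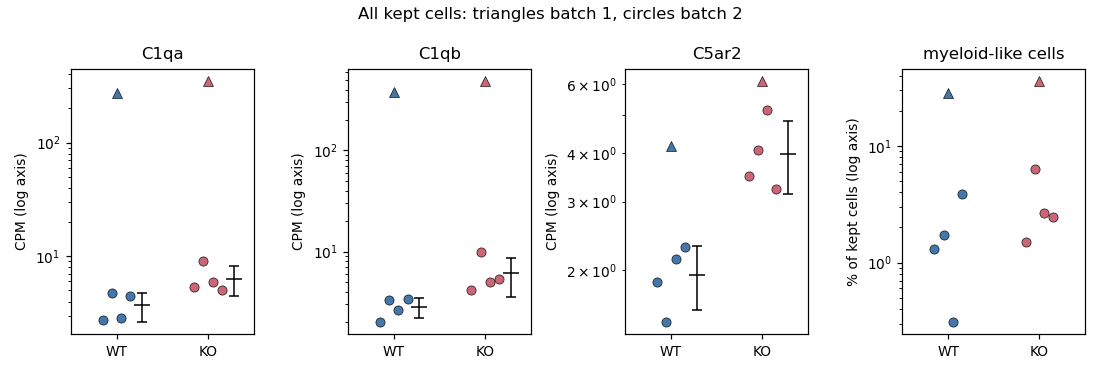
CPM of C1qa, C1qb and C5ar2 over all kept cells of each library and, at the right, the percent of kept cells that are myeloid-like, with batch 1 as triangles, batch 2 as circles, the mean ± SD of batch 2 beside the circles of the 3 genes, and logarithmic axes. In each of the 3 genes the KO circles lie above the WT circles and the KO triangle above the WT triangle, whereas the myeloid-like shares overlap in batch 2.

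No member passed the filter on low counts in dendritic-like, T-like, pericyte-like or endothelial-like cells, and no gene was called there by edgeR in 337, 910, 259 and 212 genes (0%), with 14, 41, 23 and 20 at an unadjusted p under 0.05. B-like and epithelial-like cells had too few libraries with 10 cells for a fit.

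The other genes of the complement system were taken from a list of 46, of which 44 were in the feature table. It covers the proteases C1ra, C1s1 and C2, the terminal components, the lectin and alternative pathway genes, and the regulators and receptors. Few were expressed enough to test. In myeloid-like cells 3 were tested and 0 called in either direction. The 4 of highest mean level there were Calr, Cd93, Itgam and Lrp1. Calr, calreticulin, a chaperone that binds C1q, averaged 294 CPM. Cd93, a surface protein once described as a C1q receptor, averaged 274, with 186 in batch 1 and 329 in batch 2. Itgam, the alpha chain of complement receptor 3, averaged 185. Lrp1, a scavenger receptor that works with calreticulin, averaged 149 and fell below the filter. Cfp, properdin, which stabilises the C3 convertase, stood at 275 CPM in batch 1 and 43.5 in batch 2 and was named here after its values were seen. The log2 fold changes were -0.19 ± 0.22 (SE) for Cd93, 0.04 ± 0.24 for Itgam and 0.01 ± 0.20 for Calr, each with an adjusted p of 0.999 (edgeR).

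In fibroblast-like cells the 4 highest were Calr at 254 CPM, Serping1 at 216, Lrp1 at 197 and Clu at 125. Serping1 encodes the C1 inhibitor, and Clu encodes clusterin, which blocks the membrane attack complex. Serping1 stood at 1078 CPM in batch 1 and 81.6 in batch 2, a step of the same direction as that of C3. Clu went the other way, at 6.49 in batch 1 and 135 in batch 2. Only Calr was tested, at 0.30 ± 0.42 (SE, adjusted p = 0.990), and 0 were called. C4b, a classical pathway protein chosen here after its values were seen, had 429 CPM in batch 1 fibroblast-like cells and 18.8 in batch 2. In tumor-like cells 10 of the list were tested and 0 called, with a median log2 fold change of 0.10 against 0.00127 over all 11495 genes. Over all kept cells 16 were tested and 0 called, with a median of 0.12 against -0.00253 over all 12450, and 13 of the 16 were positive. In endothelial-like cells 1 was tested and 0 called. Hc, also chosen after its values were seen, encodes C5, the source of the C5a that C5ar1 and C5ar2 bind, and had 1 UMI in myeloid-like, 4 in fibroblast-like and 50 in tumor-like cells.

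Genes with the most similar profile were sought over 42 clusters with at least 20 cells, 19 of batch 1 and 23 of batch 2, as the Pearson r of log2(CPM + 10) among 11180 genes. The clusters share libraries and depth, so r is given as a description. The summed C1q genes were most like Ms4a7 (r = 0.94), Pf4 (0.94), Apoe (0.93), Tmem171 (0.93) and Trem2 (0.92), a set in which Ms4a7, Apoe and Trem2 are macrophage genes. Within batch 2 these values were 0.73 to 0.83. C3ar1 was most like Fcgr3 (0.95), Gm5150 (0.95), Adgre1 (0.95), Msr1 (0.94) and P2ry6 (0.94), and C5ar1 was most like Aoah (0.95), Apobec1 (0.91), Fcgr4 (0.91), Hpgds (0.90) and Pou2f2 (0.89). Ms4a7, Fcgr3 and Adgre1 were among the markers that named the clusters. C3 was most like Ptgs2 (0.85), which encodes an inflammatory prostaglandin synthase, Id3 (0.79), Tcn2 (0.78), Lrp1 (0.77) and Cebpd (0.77), a C/EBP factor. The likeness of C3 rested on batch 1 for Id3 and Tcn2, whose r within batch 2 was 0.14 and 0.24, while Lrp1 had 0.73 there.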

How the data were processed

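The files deposited by the authors hold unnormalized UMI counts, 1 matrix a library with empty droplets included, from 10x 3' libraries; the submitters' processing notes name Cell Ranger 7.1.0 and mm10. The study's methods name another patch version of Cell Ranger. The members and gene lists were chosen with earlier results of these data known.

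Cells were barcodes in which 200 to 7000 genes were detected and mitochondrial genes took no more than 10% of UMIs. Actb took 1.99 to 17.0% of the UMIs of a library's cells and was left out of totals. Each batch was clustered on 2000 variable genes without the members or the complement list, with 30 principal components, 15 neighbours and resolution 1 (scanpy 1.11.5, leidenalg 0.10.2, Python 3.11.15). A class needed 3 markers at least 2-fold up and found in 2% of cells. These thresholds were set after the clusters were seen, over several versions, before WT and KO were compared. Some clusters with tumor markers as well, and clusters under 25% of the marker level of the strongest cluster, stayed unnamed. Named clusters could also raise markers of the tumor list. The fibroblast-like cluster raised 4 in batch 1 and 5 in batch 2. In batch 2 the B-like cluster raised 5, and the endothelial-like and a dendritic-like cluster 4 each. Doublets were not removed.

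UMIs were summed per library and class. Libraries with at least 10 cells were fitted with edgeR 4.0.16 (quasi-likelihood, TMM, filterByExpr, batch as a covariate, R 4.3.3), or with DESeq2 1.42.0 as an alternative, and a gene was called at an adjusted p under 0.05. The fits were tested on simulated data. CPM exclude Actb. C3 ratios and shares were compared by exact permutation within batch. Each library was 1 replicate, and where a library pools tumors the spread covers the pool. Intervals are 95% and cover counting error, as does the floor of 3 UMIs. Named genes are the members, the 4 list genes of highest mean level in myeloid-like and in fibroblast-like cells, and the 5 of highest likeness. Alternatives covered the test, scaling, filter, Actb, batch, pooled and single libraries, the replicate number as a block, limits on barcodes, free RNA, clustering, pseudocount and thinning depth. Promoter sequences are from RefSeq (GRCm38.p6), where 6 of the 7 members had an entry.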

Additional observations from a re-analysis of the deposited data

Results flagged for a closer look

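The measure given for each of these values is the gap of the outlying library to its nearest neighbour, divided by the range of its group. The limits are Dixon's 95% critical values for 5 libraries (both batches) and 4 libraries (batch 2), and chance alone exceeds them in about 1 of 20 groups. Over both batches 19 of 32 groups exceeded the limit, and in 18 of them the outlying library was that of batch 1. In myeloid-like cells the batch 1 library stood apart for C1qa (0.809 in WT, 0.965 in KO), C1qb (0.986 and 0.981), C1qc (0.860 in KO), C3 (1 in WT) and C3ar1 (0.732 in KO). For C3ar1 in WT the outlying library was WT4 (0.735), at 0 UMIs in 29 cells. Over all kept cells the batch 1 library stood apart for C1qa (0.992 in WT, 0.988 in KO), C1qb (0.996 and 0.988), C1qc (0.992 and 0.985), C3 (0.947 in KO), C3ar1 (0.929 and 0.919) and C5ar1 (0.805 in KO). In fibroblast-like cells it stood apart for C3 in WT (0.868).

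Within batch 2, 4 of 32 groups exceeded the limit. In myeloid-like cells these were C1qc in WT, with WT4 highest at 9 UMIs (0.849), and C1qc in KO, with KO1 highest at 19 UMIs (0.871). Over all kept cells they were C1qc in WT, with WT3 highest (0.910), and C3ar1 in WT, with WT4 lowest (0.870).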

How the results depend on the processing

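Depth was a limit. C1q in the myeloid-like cells of batch 2 rested on 1 to 36 UMIs per chain and library and C3 in fibroblast-like cells on 0 to 3. No member was called in myeloid-like or tumor-like cells under the alternatives run. Over all kept cells 1 member, C1qb, was called without the filter on low counts (0.71, adjusted p = 0.0210). Without the filter, 242 of 27390 genes were called there (0.884%), 207 of them higher in KO. The C1qb value over all kept cells ranged from 0.33 to 1.02 over 23 alternatives, with adjusted p from 0.0210 to 1.00. C1qa, C1qc, C3ar1, C5ar1 and C5ar2 stayed positive there under all alternatives in which they were tested. C3 there turned to -0.00471 with DESeq2, -0.0160 without the filter, -0.0491 in batch 2 alone, -0.0297 at 500 or more UMIs per barcode and -0.0318 with free RNA subtracted, and leaving out single libraries gave -0.20 to 0.40.

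In myeloid-like cells, leaving out the batch term gave -0.0861 for C1qa, -0.0230 for C1qb, -0.116 for C1qc and 0.0420 for C3ar1. C3ar1 was 0.0120 on library totals without TMM, 0.0783 without the filter, 0.0114 without both pooled KO libraries, 0.0665 at up to 20% mitochondrial UMIs and 0.28 with the clusters of tumor and myeloid markers added. C5ar1 was -0.0742 in batch 2 alone. Leaving out single libraries gave -0.00844 to 0.36 for C1qa, 0.24 to 0.83 for C1qb, 0.03 to 0.45 for C1qc, -0.14 to 0.0825 for C3ar1 and -0.0820 to 0.23 for C5ar1. At 500 or more UMIs per barcode no member passed the filter. C3 in tumor-like cells ranged from -0.38 to 0.30 over single libraries left out, the latter without WT4. The C3 log2 ratio ranged from -2.73 to -1.75 over single libraries left out and from -5.10 to -0.75 over the pseudocounts, with p = 0.0286 by exact permutation without WT4.

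The KO minus WT share of C3 UMIs, in percentage points, turned to 0.4997 for tumor-like and -0.253 for myeloid-like cells without both pooled KO libraries, and to 1.63 for fibroblast-like and -0.325 for myeloid-like cells at 500 or more UMIs. Over single libraries left out, the fibroblast-like share ranged from -4.08 to 1.34. The cause of these changes was not tested.

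The unpooled libraries of batch 2 share the replicate numbers 1 and 4 between WT and KO. WT3 and WT5 share a number with 1 of the 2 tumors in KO2_plus3 and KO5_plus6 and were not paired with them. The sources used here do not say that a number marks paired animals. With the replicate block, C1qb was 0.29 in myeloid-like cells and 0.73 over all kept cells, C3 in tumor-like cells was -0.04, and 0 members were called.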
